A study of Homo sapiens with 12 samples.

Results

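Ribosome biogenesis is described here through 50 genes of RNA polymerase I (Pol I) transcription and ribosome assembly, chosen by a list of gene symbols and found among the 58735 genes of the count table. All 50 symbols matched a gene. The list holds 4 Pol I subunits, 6 Pol I initiation factors, 3 box C/D and 4 H/ACA snoRNP proteins, 5 nucleolar organizers, 9 early and 7 late factors of the small (40S) subunit, and 12 factors of the large (60S) subunit. The rule itself uses no measured value.

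The cells were 293T, a human embryonic kidney line, transduced with a lentiviral construct and sorted for GFP. Every library came from these cells. The construct is a doxycycline-inducible 4EBP1-4A, a 4EBP1 in which the threonines T37, T46 and T70 and the serine S65 were changed to alanine, so that kinases cannot phosphorylate them. The control group received DMSO and the treated group doxycycline at 2 mg/ml, with 3 RNA-seq and 3 ribosome footprint (RF) libraries per group, and all cells received cycloheximide shortly before RNA isolation. The sample labels give a treatment of 12 h, while the series description and the results text of the study each give a different time. The labels do not say whether replicates were separate cultures, so p-values measure the spread between these libraries. The expressed 4EBP1-4A comes from a transgene in 1 cell line, and no loss of the cells' own 4EBP1 is described. No library came from cells without the construct, so effects of doxycycline itself and of 4EBP1-4A cannot be told apart.

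In the nucleolus, Pol I transcribes the ribosomal DNA repeats into a long precursor. Small nucleolar RNPs (snoRNPs) modify this precursor, and assembly factors fold and cut it into the rRNAs of the small and the large subunit. This work takes up a large share of the energy of a growing cell, and it is known to follow mTOR signaling and MYC, a transcription factor that binds the E-box CACGTG in the promoters of many of these genes. 4EBP1 acts downstream of mTOR: in its unphosphorylated form it binds eIF4E, the cap-binding protein, and holds back translation initiation.

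The E-box is shown first because it is a sequence feature of a part of the members that the choice of genes did not use. RefSeq promoters, of 250 bases before and 50 after each start, were at hand for 43 of the 50 members. RRP12, POLR1E, RRS1, BOP1, NOP58, NOLC1 and TCOF1 had no entry. The letters CACGTG, which read the same on both strands, occurred in 17 of the 43 members (39.53%), in 26 of 85 other ribosome biogenesis genes (30.59%), in 1662 of 15170 protein-coding genes (10.96%) and in 2396 of all 27305 genes (8.775%). Counted over promoters of equal length, since a gene can have several, 33.33% of the members' promoters, 27.84% of those of the other ribosome biogenesis genes and 7.256% of all promoters held it. A site lay within 40 bases of the start in 16 of the 17 members (94.12%), in 18 of the 26 other ribosome biogenesis genes (69.23%) and in 741 of the 2396 genes (30.93%). A match is a description of letters, and binding was not measured. The windows below hold up to 12 bases on either side of the E-box, which is in capitals, and are read 5′ to 3′ on the strand of the gene (RefSeq, GRCh38.p14). They are from the 6 E-box members with higher RNA in the test without doxycycline replicate 3, followed by 4 members with an E-box that did not pass it.
UTP4: agagcgcgcgcgCACGTGgggccggggcgg
RRP9: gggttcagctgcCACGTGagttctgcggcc
NOP14: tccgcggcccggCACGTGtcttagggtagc
FBL: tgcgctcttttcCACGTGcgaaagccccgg
UTP14A: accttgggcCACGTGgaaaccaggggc
PES1: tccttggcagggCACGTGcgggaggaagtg
GNL3: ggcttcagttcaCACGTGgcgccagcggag
NAT10: aatgcgcttgcgCACGTGctgtctaccagt
UTP20: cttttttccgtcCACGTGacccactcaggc
DDX21: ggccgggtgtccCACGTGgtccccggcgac

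These windows lie at chr16:69132621-69132650 (+) for UTP4, chr3:51941892-51941921 (-) for RRP9, chr4:2963374-2963403 (-) for NOP14, chr19:39846356-39846385 (-) for FBL, chrX:129905914-129905940 (+) for UTP14A and chr22:30591880-30591909 (-) for PES1. Those of the other 4 lie at chr3:52686026-52686055 (+) for GNL3, chr11:34105602-34105631 (+) for NAT10, chr12:101280083-101280112 (+) for UTP20 and chr10:68956604-68956633 (+) for DDX21. Counting the first transcribed base as 0, the E-box began at -16 in UTP4, -5 in RRP9, 15 in NOP14, 6 in FBL and 13 in PES1. UTP14A, with its site at -241, was the member with no site within the 40 bases. NOP10, a small protein of the H/ACA snoRNP, was the member with a pair of sites, at -170 and -11.

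Reads on genes numbered 51519700 to 57824136 in RNA-seq with DMSO and 47862104, 45887231 and 21687906 with doxycycline. Doxycycline replicate 3 stood apart. Its log2 CPM values (CPM sets the reads of a gene against the depth of its library) correlated with those of the other libraries at r = 0.959 to 0.977 across genes, against 0.991 to 0.995 among the other 5, and 88.4% of its reads had more than 1 alignment, against 54.9% to 62.3% with DMSO. EIF4EBP1, the gene of 4EBP1, was at 153, 154 and 168 TMM-scaled CPM with DMSO and at 258, 279 and 285 with doxycycline, so all treated libraries were above all controls. Of the markers of the line, NEFL, NEFM, VIM, CDH2, LIN28B and PAX2 were detected in all 6 libraries, with PAX2 the lowest at 1.26 to 4.46 CPM. Of the 8 markers of other cells, KRT5 and KRT14 had no reads in any library and PTPRC, PECAM1 and ALB were under 0.3 CPM. KRT10 was at 5.32 ± 0.321 CPM with DMSO (SD, n = 3) and 2.35 to 4.89 CPM with doxycycline, COL3A1 at 2.29 to 2.90 and 2.76 to 3.82 CPM, and COL1A1 at 8.23 to 10.2 and 10.1 to 25.6 CPM, with the highest value in doxycycline replicate 3. The part of other cells in the results was not tested. The tests were run with and without doxycycline replicate 3, and unless all 6 libraries are named, the fold changes of single members are those without it.

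All 50 members had at least 144 reads in each RNA-seq library and passed the filter on low counts. Their reads made up 0.645% to 0.677% of the reads on genes with DMSO, and 0.748%, 0.757% and 0.898% in doxycycline replicates 1, 2 and 3. TMM scaling sets a single factor per library and leaves in place the shift with GC content described below. After this scaling, the members summed to 6723, 6879 and 6954 CPM with DMSO and 7553, 7444 and 8187 CPM with doxycycline. All treated libraries were above all controls, and the mean rose from 6852 ± 118 to 7728 ± 401 CPM (SD, n = 3 each), a ratio of 1.13, or 1.09 without doxycycline replicate 3. In such bulk samples, a change in the share of cells that express a gene and a change in RNA per cell cannot be told apart.

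**Figure D1:**
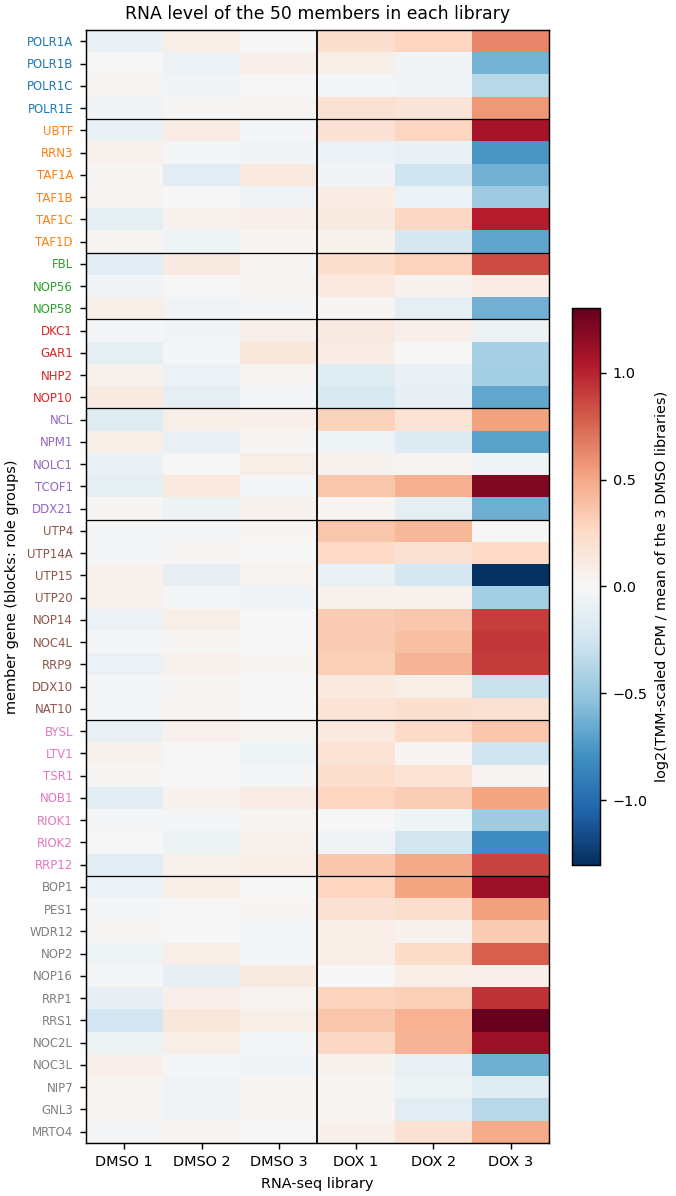
RNA level of each of the 50 members in the 6 RNA-seq libraries, as log2 of the TMM-scaled CPM over the mean of the 3 DMSO libraries (color scale), in blocks by role. The DMSO columns are near 0, TCOF1, RRP12, BOP1 and RRS1 are red in all doxycycline columns, and doxycycline replicate 3 has the strongest colors in both directions.

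With all 6 libraries, none of the 50 members passed an adjusted p of 0.05 in edgeR's quasi-likelihood test, in either direction, and neither did any of the 20552 genes tested (0% higher and 0% lower). The lowest adjusted p of a member was 0.303. DESeq2's Wald test and edgeR's likelihood ratio test also called 0 members, while over all genes they called 3 and 12. At an unadjusted p under 0.05, 18 members were higher and 0 were lower, where 10.7% of all genes were higher and 4.3% lower. Counted in either direction, DESeq2 gave 20 members and the likelihood ratio test 17. The shares of all genes in those tests are not given. The median log2 fold change of the members was 0.12, against 0.0029 over all genes tested. In 25 members all treated libraries were above all controls, which 19.7% of all genes also showed. For 2 members, RRN3 and NHP2, all treated libraries were below all controls, and 18.9% of all genes did the same.

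Doxycycline replicate 3 was the highest of the 6 libraries for 22 members and the lowest for another 22. Over all genes it was the highest for 40.3% and the lowest for 41.2%. Relative to the mean of doxycycline replicates 1 and 2, its log2 level was 0.91 higher for RRS1 and 0.84 higher for UBTF, and -1.12 for UTP15. UTP15, a protein of the early 40S precursor, had 69.9, 62.3 and 69.0 CPM with DMSO and 62.6, 57.5 and 27.6 CPM with doxycycline.

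Without doxycycline replicate 3, 17 of the 50 members were higher with doxycycline and 0 were lower (edgeR, adjusted p under 0.05), while 769 of the 21234 genes tested were higher (3.62%) and 654 lower (3.08%). DESeq2 called 20 members higher and edgeR's likelihood ratio test 18, and the shares of all genes in those tests are not given. Among the 11396 protein-coding genes with at least the mean count of the lowest member, 186 reads, 5.98% were higher and 5.27% lower. At an unadjusted p under 0.05, 22 members were higher and 1, UTP15, was lower, where 12.7% of all genes were higher and 12.5% lower. The fold change was positive for 35 members, with a median log2 value of 0.10 against -0.00025 over all genes, and ran from -0.16 for UTP15 to 0.42 for RRP12. The called rises were small, from 1.15-fold for TSR1 to 1.34-fold for RRP12. In 16 of the 17, doxycycline replicate 3, which the test did not use, was also above all DMSO libraries, as it was for 99.5% of all genes called higher. UTP4 was the exception. The sign of the fold change was different with all 6 libraries for 6 members, none of them called in these fits (POLR1B, TAF1B, GAR1, UTP20, DDX10 and LTV1). These calls depended on single libraries. Without doxycycline replicate 2 as well, replicate 1 was the only treated library left, too few to repeat the calls. In that fit 41 members had a positive fold change, and the median was 0.12, against -0.0048 over all genes. Without DMSO replicate 1 the count of members called higher was 8, where 0.716% of all genes were higher. Without DMSO replicate 3 it was 11, where 1.62% were. When the libraries were scaled to their total reads, 21 members were higher and 81.1% of all called genes were higher, against 54.0% with TMM factors. That scaling moved the median of all genes by 0.055.

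**Figure D2:**
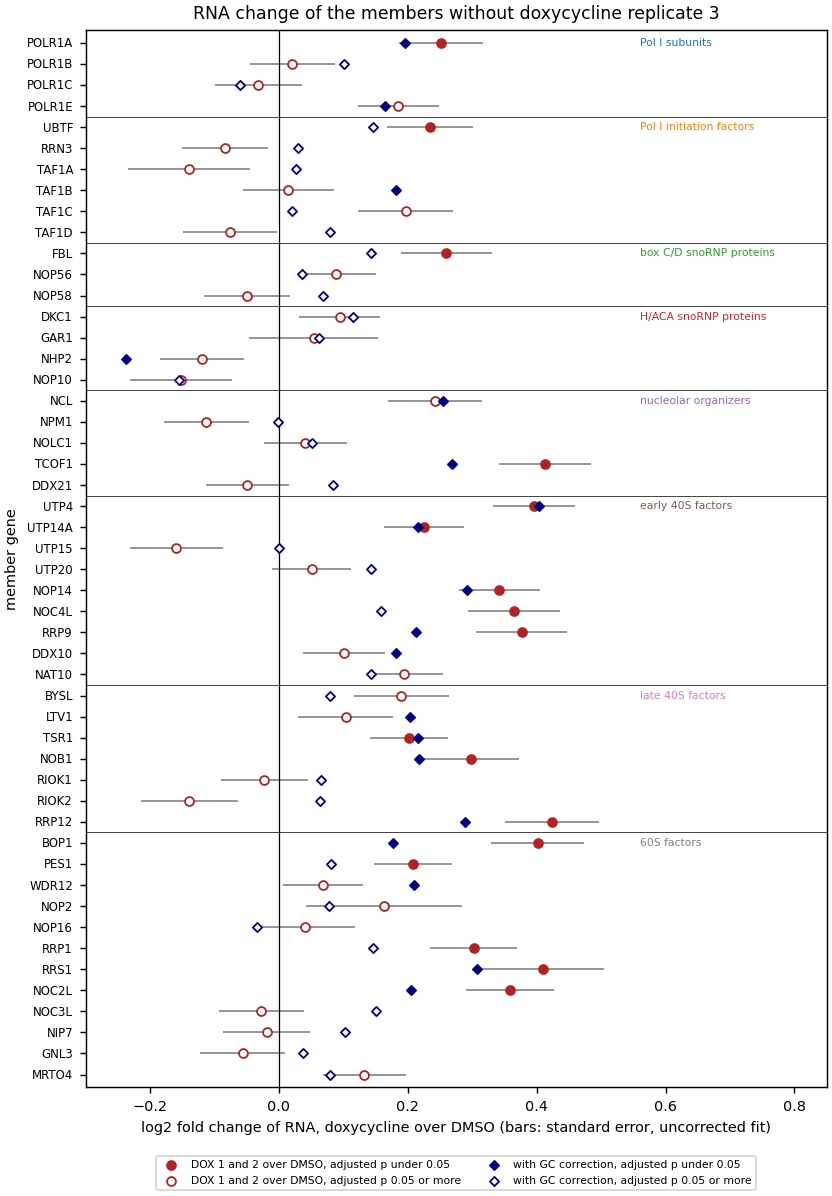
Log2 fold change of RNA for each member, doxycycline replicates 1 and 2 over the 3 DMSO libraries (red circles, with standard errors), and the same after a correction for GC content (blue diamonds); filled symbols have an adjusted p under 0.05. Filled red circles run from 0.20 for TSR1 to 0.42 for RRP12, and none lies left of 0.

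Among the Pol I subunits, POLR1A rose and the others did not pass the test. POLR1A, the largest subunit, with the catalytic site, lies at chr2:86020216-86106155 (GENCODE 44, GRCh38). It had 189, 212 and 202 CPM with DMSO and 234, 244 and 312 CPM with doxycycline. The groups did not overlap, and its log2 fold change without doxycycline replicate 3 was 0.25 (SE 0.065, adjusted p = 0.0298, edgeR). POLR1E, a subunit that helps to start transcription, had 84.1, 87.8 and 89.0 CPM with DMSO and 99.8, 97.9 and 129 CPM with doxycycline, a log2 change of 0.19 with an adjusted p of 0.0773 (edgeR). POLR1C, which Pol I shares with RNA polymerase III, had 51.6, 49.4 and 50.5 CPM with DMSO and 49.5, 49.2 and 39.4 CPM with doxycycline. Doxycycline replicates 1 and 2 were level with the lowest control and replicate 3 was below it. POLR1B, the second-largest subunit, had a log2 change of 0.02.

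Of the initiation factors, UBTF passed the test. UBTF is the HMG box protein that binds ribosomal DNA and keeps the repeats open, and it rose from 119, 135 and 125 CPM to 144, 153 and 266 CPM, by 0.23 on the log2 scale (SE 0.067, adjusted p = 0.0432, edgeR). The factors of the promoter complex SL1 did not move together. TAF1C had 59.3, 66.7 and 67.6 CPM with DMSO and 70.2, 77.7 and 131 CPM with doxycycline, with a log2 change of 0.20 and an adjusted p of 0.106 (edgeR). TAF1A, another SL1 subunit, had 21.4, 19.2 and 23.1 CPM and then 20.8, 17.7 and 13.7 CPM, so its groups overlapped (log2 change -0.14). TAF1D had 169, 158 and 167 CPM with DMSO and 170, 142 and 102 CPM with doxycycline, a change of -0.08. RRN3, which brings Pol I to the promoter complex, had 69.9, 66.0 and 65.8 CPM with DMSO and 63.9, 62.8 and 39.8 CPM with doxycycline. Its treated libraries were all below the controls, yet the log2 change of -0.08 had an adjusted p of 0.462 (edgeR).

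The snoRNP proteins differed between the 2 classes in the values, a difference that was not tested. FBL, the methyltransferase of box C/D snoRNPs, lies at chr19:39834458-39846379. It rose from 125, 149 and 139 CPM with DMSO to 161, 168 and 248 CPM with doxycycline (log2 change 0.26, SE 0.071, adjusted p = 0.0361, edgeR), and the groups did not overlap. Its partners in the same particle had changes of 0.09 (NOP56) and -0.05 (NOP58), neither called. NOP58 had 164, 151 and 153 CPM with DMSO and 158, 144 and 101 CPM with doxycycline.

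None of the 4 H/ACA proteins, whose particle turns uridines of the rRNA into pseudouridines, was called. DKC1, the pseudouridine synthase, had a log2 change of 0.09, GAR1 0.05, NHP2 -0.12 and NOP10 -0.15. NHP2 had 125, 115 and 124 CPM with DMSO and 109, 115 and 89.7 CPM with doxycycline. GAR1 was at 8.56, 9.21 and 10.3 CPM and then at 10.0, 9.38 and 6.94 CPM, and its groups overlapped. As a sum, the H/ACA proteins were at 316 ± 12.2 CPM with DMSO and 294 ± 30.3 CPM with doxycycline (SD, n = 3 each), and they were the role group with a ratio under 1 without doxycycline replicate 3 (0.986). RMND5B, on the other strand, covers 28.0% of the exon bases of NHP2, and no source says if reads were counted by strand.

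Among the nucleolar organizers, TCOF1 had the strongest change. TCOF1 encodes treacle, which supports Pol I transcription and is mutated in Treacher Collins syndrome, a disorder of the face, and it lies at chr5:150357629-150400308. It had 362, 433 and 391 CPM with DMSO and 507, 546 and 913 CPM with doxycycline. All treated libraries were above all controls, and the rise without doxycycline replicate 3 was 1.33-fold (log2 0.41, SE 0.071, adjusted p = 0.00619, edgeR). NOLC1, which resembles treacle in its repeats and escorts snoRNPs, had 243, 257 and 272 CPM and then 266, 263 and 248 CPM, values that overlap (log2 change 0.04). NCL, the abundant nucleolar protein nucleolin, had 417, 493 and 490 CPM with DMSO and 575, 529 and 670 CPM with doxycycline. Its log2 change of 0.24 just missed the threshold (adjusted p = 0.0506, edgeR). NPM1, which helps to keep the nucleolus together, had a change of -0.11, and the RNA helicase DDX21 one of -0.05. NPM1 has 49 named pseudogenes in the annotation, so its count of uniquely aligned reads is uncertain.

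Of the early 40S factors, 5 of 9 were called without doxycycline replicate 3 (3.62% of all genes were higher), the largest share of a role group in that fit. With the GC correction described below, the late 40S factors had the largest share (57.1%, against 55.6%). The early 40S factors summed to 905, 918 and 909 CPM with DMSO and 1043, 1050 and 1079 CPM with doxycycline. The ratio was 1.16, or 1.15 without doxycycline replicate 3. UTP4, a protein of the first complex to bind the precursor, lies at chr16:69131291-69231130. It had 63.9, 63.8 and 65.7 CPM with DMSO and 82.9, 86.7 and 64.5 CPM with doxycycline. The first pair of treated libraries was well above the controls and the third was among them. Without that library the log2 change was 0.40 (SE 0.064, adjusted p = 0.00448, edgeR), which was the lowest adjusted p of all members, and with it 0.28 (adjusted p = 0.303).

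RRP9, a protein of the U3 snoRNP that guides the first cuts, had 48.6, 53.1 and 52.2 CPM with DMSO and 63.4, 69.7 and 96.5 CPM with doxycycline (log2 change 0.38, SE 0.071, adjusted p = 0.00938, edgeR). NOP14 and NOC4L, which bind each other in the 40S precursor, both rose. NOP14 went from 168, 186 and 177 CPM to 222, 226 and 330 CPM (log2 change 0.34, SE 0.063, adjusted p = 0.00861, edgeR), and NOC4L from 33.3, 34.0 and 33.5 CPM to 42.2, 44.2 and 63.6 CPM (log2 change 0.36, SE 0.071, adjusted p = 0.0111, edgeR). In all of RRP9, NOP14 and NOC4L the treated libraries were above the controls, which 19.7% of all genes also showed. NOP14 lies at chr4:2937933-2963406, where the antisense gene NOP14-AS1 covers 20.7% of its exon bases. UTP14A also rose, by 0.23 on the log2 scale. NAT10, which acetylates the rRNA of the small subunit, was at 169, 174 and 172 CPM and then at 194, 198 and 197 CPM, with no overlap between groups but an adjusted p of 0.0555 (log2 change 0.19, edgeR). DDX10, an RNA helicase, had 68.8, 70.0 and 69.4 CPM with DMSO and 75.7, 73.2 and 56.9 CPM with doxycycline, and UTP20 had a change of 0.05.

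Of the late 40S factors, RRP12, NOB1 and TSR1 rose. RRP12, which accompanies the precursor of the small subunit out of the nucleus, had the largest fold change of the members without doxycycline replicate 3 and lies at chr10:97356358-97426076. It had 92.4, 106 and 108 CPM with DMSO and 131, 144 and 188 CPM with doxycycline. With all 6 libraries RRS1 (0.78), TCOF1 (0.73), BOP1 (0.68) and NOC2L (0.66) had a larger log2 change than RRP12 (0.59). The lowest treated library of RRP12 was above the highest control (without doxycycline replicate 3, log2 change 0.42, SE 0.073, adjusted p = 0.00617, edgeR). NOB1, the nuclease that makes the last cut of the small-subunit rRNA, had 48.9, 56.0 and 57.8 CPM and then 65.7, 67.5 and 77.3 CPM (log2 change 0.30, SE 0.075, adjusted p = 0.0278, edgeR). TSR1, at 170, 168 and 166 CPM with DMSO and 196, 190 and 173 CPM with doxycycline, was just under the threshold (log2 change 0.20, adjusted p = 0.0499, edgeR).

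The kinases that act with NOB1 on the late particle were not called. RIOK2 had 53.8, 51.2 and 55.8 CPM with DMSO and 51.8, 45.4 and 30.6 CPM with doxycycline (log2 change -0.14), and RIOK1 had a change of -0.02. BYSL and LTV1 had changes of 0.19 and 0.10. Genes that overlap on the other strand, among them SRR for TSR1 and NQO1-DT for NOB1, cover 26.9% of the exon bases of TSR1 and 20.4% of those of NOB1.

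Of the 60S factors, 5 of 12 were called higher without doxycycline replicate 3, where 3.62% of all genes were. With the GC correction described below it was 4 of 12, where 1.88% of all genes were higher. BOP1 and PES1, which act as a complex with WDR12 in the processing of the large-subunit rRNA, were both called without that correction. BOP1 had 144, 160 and 151 CPM with DMSO and 184, 217 and 328 CPM with doxycycline (log2 change 0.40, SE 0.072, adjusted p = 0.00763, edgeR), and no treated library reached down to the controls. PES1 rose by 0.21 and WDR12 had 86.4, 85.5 and 84.9 CPM with DMSO and 90.9, 88.6 and 107 CPM with doxycycline (log2 change 0.07, adjusted p = 0.532, edgeR).

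RRS1, which brings the 5S RNP into the large subunit, had 22.1, 28.9 and 27.5 CPM with DMSO and 33.7, 35.8 and 65.5 CPM with doxycycline (log2 change 0.41, SE 0.095, adjusted p = 0.0210, edgeR). NOC2L, a 60S factor that is also known to inhibit histone acetylation, had 201, 222 and 206 CPM and then 252, 286 and 456 CPM (log2 change 0.36, SE 0.068, adjusted p = 0.0102, edgeR). RRP1 had 71.6, 80.6 and 78.9 CPM and then 94.1, 95.8 and 147 CPM (log2 change 0.30, SE 0.067, adjusted p = 0.0177, edgeR). The groups were apart in all of RRS1, NOC2L and RRP1, and 19.7% of all genes also had all treated libraries above all controls. Doxycycline replicate 3 was the highest library in each, as it was for 40.3% of all genes.

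GNL3, the nucleostemin of stem and cancer cells, had 288, 276 and 288 CPM with DMSO and 290, 256 and 221 CPM with doxycycline, with a log2 change of -0.06. NOC3L and NIP7 had changes of -0.03 and -0.02, NOP16 0.04 and MRTO4 0.13, and none was called. NOP2, which methylates the large-subunit rRNA, had only 3.39, 3.74 and 3.46 CPM with DMSO and 3.75, 4.16 and 6.05 CPM with doxycycline. A gene on the same strand covers 54.4% of its exon bases, and reads shared between genes are not counted, so its level is uncertain.

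As levels per length, the members were well expressed. The median over the members was 20.8 ± 0.272 TMM-scaled CPM per kb of exon with DMSO (SD, n = 3), while the median of the 14262 protein-coding genes tested was 5.32, and 47 of the 50 members were above it. GNL3 (87.7 ± 2.23) and NHP2 (82.2 ± 3.78) were the highest, and they differed by little more than their spread. NOLC1 (64.9 ± 3.71) and FBL (64.3 ± 5.57) came close to each other in level per kb. At the low end were NOP2 (0.753 ± 0.0401), DDX10 (3.84 ± 0.033) and GAR1 (4.77 ± 0.461). These orders depend on the length used. Per kb of the longest coding transcript, NPM1 (234), NOP56 (161) and NHP2 (156) were above GNL3 (139), and among the organizers NOLC1 (64.9) was the lowest, with TCOF1 at 77.6. Per kb of exon, levels within a complex were unequal: the H/ACA partners GAR1 and NHP2 are the lowest and the highest of their group. Among Pol I subunits the level per kb of exon ran from 9.17 ± 0.198 for POLR1C to 34.8 ± 1.02 for POLR1E, and among initiation factors from 7.33 ± 0.684 for TAF1A to 20.7 ± 0.725 for TAF1D. Box C/D proteins ran from 47.6 ± 2.14 for NOP58 up to FBL, organizers from 34.6 ± 3.12 for TCOF1 up to NOLC1, early 40S factors from DDX10 up to 49.7 ± 2.59 for NOP14, and late 40S factors from 9.76 ± 0.424 for RIOK2 to 35.0 ± 0.483 for TSR1.

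**Figure D3:**
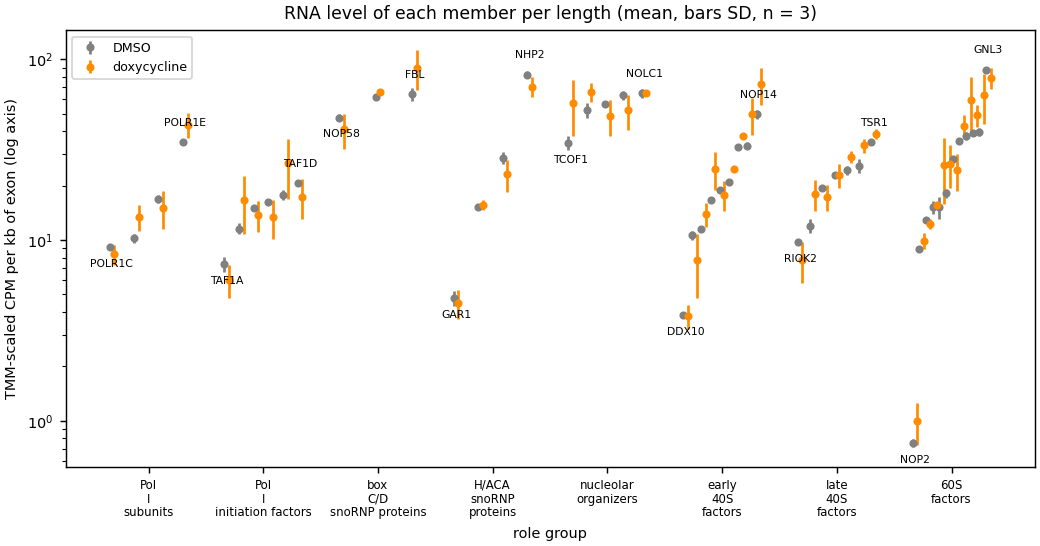
Mean RNA level of each member in TMM-scaled CPM per kb of exon (log axis) with DMSO (grey) and doxycycline (orange), by role group; bars are SD over the 3 libraries of a group. The DMSO levels run from 0.753 for NOP2 to 87.7 for GNL3, and the doxycycline bars include replicate 3.

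The direction of a member's change went with its GC content. Across the 50 members, the log2 fold change correlated with the percentage of G and C in the canonical transcript at r = 0.83 (Spearman's rho 0.82) with all 6 libraries and 0.76 (0.75) without doxycycline replicate 3. Over all genes with a GC value the same correlations were 0.62 (n = 20396) and 0.42 (n = 21068). These points share the same libraries, and genes are not independent replicates. The correlation was present in each treated library against the DMSO mean, with r = 0.58, 0.84 and 0.84 in doxycycline replicates 1, 2 and 3, while with transcript length (log2) it was 0.13 and 0.16. Of the 17 called members, 15 were among the 25 of higher GC. Summed over the 25 members of higher GC, the level was 2850, 3103 and 3024 CPM with DMSO and 3489, 3666 and 5004 CPM with doxycycline (ratio 1.35, or 1.20 without doxycycline replicate 3). Over the 25 of lower GC it was 3873, 3777 and 3930 CPM and then 4064, 3778 and 3183 CPM (ratio 0.952, or 1.02). Over doxycycline replicates 1, 2 and 3 the sum of higher GC rose and the sum of lower GC fell. Reads with more than 1 alignment rose over the same libraries: 65.4%, 69.9% and 88.4%. Their part in the changes of the members was not tested.

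**Figure D4:**
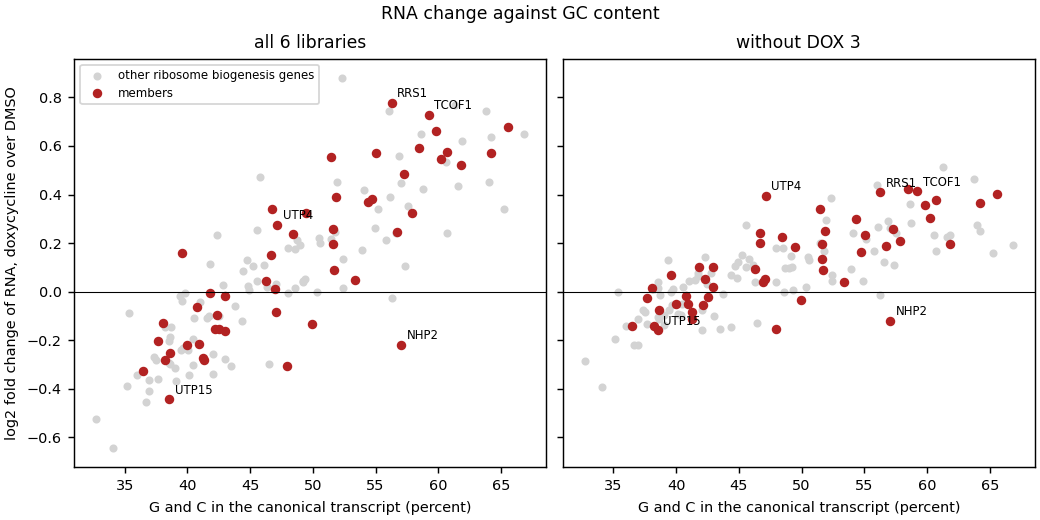
Log2 fold change of RNA against the GC content of the canonical transcript (percent), with all 6 libraries (left) and without doxycycline replicate 3 (right); red points are the 50 members and grey points the 98 other ribosome biogenesis genes. The points rise from left to right in both panels (r = 0.83 and 0.76 for the members). NHP2 is below the others of like GC in both panels, and UTP4 is above them in the right panel only.

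After a correction of each library for GC content, which was added after these values were seen, 18 members were higher without doxycycline replicate 3 and 1, NHP2, was lower (log2 change -0.24, adjusted p = 0.0290, against 0.263 without the correction, edgeR). Of all genes, 1.88% were then higher and 1.87% lower. The fold change was positive for 45 of the 50 members, with a median of 0.13, and its correlation with GC was 0.16. The calls were in part different: 12 members were called in both fits, 5 (UBTF, FBL, NOC4L, PES1 and RRP1) only without the correction and 6 (POLR1E, TAF1B, NCL, DDX10, LTV1 and WDR12) only with it. UTP4 kept its log2 change of 0.40 (adjusted p = 0.000562, against 7.7e-06 to 0.0645 over its 14 alternatives), and NOP14 (0.29), RRP12 (0.29), RRS1 (0.31) and TCOF1 (0.27) remained called. With the correction and all 6 libraries, 0 members were called.

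**Figure D5:**
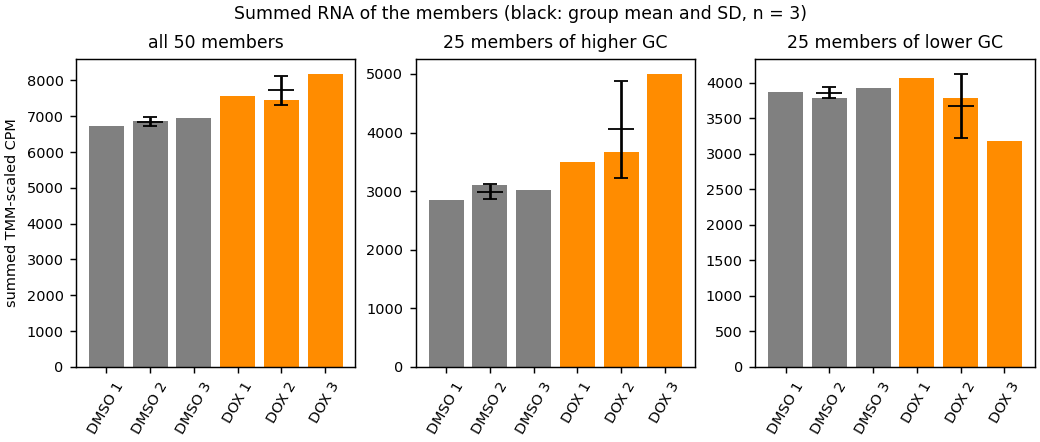
Summed TMM-scaled CPM of all 50 members, of the 25 of higher GC and of the 25 of lower GC in each RNA-seq library (bars), with group mean and SD (black, n = 3). All doxycycline bars of the first and second panels are above all DMSO bars, and in the third panel doxycycline replicate 3, at 3183, is the lowest.

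Without doxycycline replicate 3, members with an E-box were called in 6 of 17 cases, with a median log2 change of 0.16, and members with a promoter entry but no E-box in 7 of 26, with a median of 0.054, where 3.62% of all genes were higher. With all 6 libraries the medians were 0.24 and 0.014, with 0 calls, and after the GC correction without doxycycline replicate 3 they were 0.14 and 0.10. After that correction, 5 of the 17 and 8 of the 26 were called higher, where 1.88% of all genes were. The difference between members with and without an E-box was not tested. The genes of the E-box windows shown above include the member with the lowest adjusted p, UTP4, but also GNL3, DDX21 and UTP20, which were not called. By position, the members lie on 19 chromosomes. UTP4, NIP7 and NOB1 lie close together on chromosome 16, from 69131291 to 69754926, and UTP4 and NOB1 were called while NIP7, between them, was at 62.0, 58.9 and 61.9 CPM and then 61.9, 58.4 and 54.7 CPM.

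In their introns, 8 members hold 31 annotated small nucleolar or Cajal body RNA genes, and TAF1D has the most, with 8. The hosts are TAF1D, NOP56, NOP58, DKC1, NCL, TSR1, GNL3 and POLR1C. Without doxycycline replicate 3, TSR1 was the host that was called (1 of 8), where 3.62% of all genes were higher. With the GC correction 2 of 8 were called, TSR1 and NCL, where 1.88% of all genes were higher. The median log2 change of the hosts without the correction was 0.03, or -0.04 with all 6 libraries. Since 16 of these RNAs lie inside an exon that the annotation counts for the host, a part of their reads may have been counted for it or set aside as shared.

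The other genes of the pathway were read from a list of 98 that holds no member. With all 6 libraries 0 were called (21 higher and 1 lower at an unadjusted p under 0.05, edgeR, against 10.7% and 4.3% of all genes). Without doxycycline replicate 3, 15 were higher (15.3%) and 1 was lower, against 3.62% and 3.08% of all genes, with a median log2 change of 0.059, or 0.027 with all 6 libraries. DHX37, a helicase of the 40S precursor, rose by 0.51 (adjusted p = 0.000937, edgeR), TBL3 by 0.46 and PELP1 by 0.44, and RSL24D1, a 60S factor, fell by 0.39 (adjusted p = 0.0157, edgeR). By role, 5 of 34 other early 40S factors, 9 of 43 other 60S factors and 1 of 12 exosome genes were higher. None of the 4 other Pol I subunits or 5 other late 40S factors was. Of those last 9 genes, 0 and 1 had an unadjusted p under 0.05 (edgeR). With the GC correction the list had 22 higher (22.4%) and 0 lower calls, against 1.88% and 1.87% of all genes.

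The footprint libraries held too few reads to follow the members. With 210186 to 1002424 reads on genes per library, the 50 members had 49 footprint reads with DMSO and 30 with doxycycline, against 1982466 RNA-seq reads, and 26 members had none. TAF1C was the member with the most, at 0, 3 and 0 reads with DMSO and 2, 0 and 8 with doxycycline. It alone entered the test of translational efficiency (TE), the footprint level relative to RNA. Its log2 TE change was 1.60 with a standard error of 1.64 (adjusted p = 0.667, edgeR), and since 8 of its 13 reads were in doxycycline replicate 3, it entered the test through that library. Among the 1334 genes of that test, 2 were called (0.15%).

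NCL had 0, 8 and 1 footprint reads with DMSO and none with doxycycline, where 8 of 9 were in 1 library. NOC4L had 2, 1 and 2 reads with DMSO and 0, 3 and 0 with doxycycline, TCOF1 1, 2 and 3 and then 2, 0 and 0, UBTF 1, 1 and 3 and then 0, 1 and 0, and NOP14 0, 1 and 0 and then 2, 2 and 1. Counts of this size overlap between groups or rest on a library each, and a change in the translation of the members was not detectable at this depth. A count of 0 allows up to 3 reads, which is 2.99 to 14.3 footprint CPM depending on the library, for counting error only.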

How the data were processed

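RNA-seq and ribosome footprint libraries of 293T 4EBP1-4A cells (3 DMSO and 3 doxycycline of each) were grouped by their labels. The authors trimmed the linker of footprint reads, removed those on rRNA, mapped all reads with STAR to GRCh38 and summed unique alignments over the exons of each gene. The deposited counts are raw. The submitters' processing notes name GRCh37, and strand use in counting is not stated. The deposited table of TE holds the authors' ratio per condition, their log2 change, p-values and q-values and a dispersion score from RiboDiff; only its gene symbols were used. Coordinates, exon lengths and GC content came from GENCODE 44 (GRCh38), promoters from RefSeq.

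Genes that reached 10 reads in 3 or more libraries (2 or more without doxycycline replicate 3) were tested with edgeR 4.0.16 (quasi-likelihood F-test, TMM factors over the genes tested, limma 3.58.1, R 4.3.3), with Benjamini-Hochberg adjustment over all genes at 0.05. TE was tested as an assay by treatment interaction, for genes with at least 10 reads in each assay. CPM are per TMM-scaled library. GC correction was a lowess fit per library (span 0.2). Alternatives were library totals, DESeq2 1.42.0 size factors and Wald test, the likelihood ratio test, other filters, a replicate block and each library left out. The tests were tried on simulated counts. Python 3.11.15, pandas 2.3.3 and matplotlib 3.10.9 were used for tables and figures.

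RNA-seq depth was 21687906 to 57824136 reads on genes, and footprint depth 210186 to 1002424. Members, their roles and the other pathway genes were chosen with earlier results of these data known. By the rule for named genes, full values were given for the 12 largest called rises, for the highest and lowest level per length in each role group, for members in the TE test and for the members with the most footprint reads; other members have single values, and other pathway genes their counts with at most 3 rises and falls. UTP15, RRN3, TAF1C, NCL, NAT10, POLR1A, UBTF, WDR12 and NIP7 were given per library after their values were seen.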

Additional observations from a re-analysis of the deposited data

Results flagged for a closer look

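The share of reads with more than 1 alignment, a counter of the table that no comparison used, was above the highest DMSO library (62.3%) in each RNA-seq library with doxycycline. It was 65.4% in replicate 1, 69.9% in replicate 2 and 88.4% in replicate 3. Reads on genes made up 22.9%, 19.7% and 5.94% of all reads in the same libraries, against 25.2% to 30.8% with DMSO.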

How the results depend on the processing

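With all 6 libraries, leaving out 1 library gave 0 to 17 members called higher, the 17 without doxycycline replicate 3, and the median log2 change of the members (0.12) was 0.22 with library totals and 0.079 with no filter. Without doxycycline replicate 3, leaving out another gave 0 to 16 members called higher (0 without doxycycline replicate 2, 8 without DMSO replicate 1 and 11 without DMSO replicate 3), the GC correction gave 1 member called lower, and the median (0.10) was 0.16 with library totals. Size factors of DESeq2 gave 16 members higher, no filter 14 and at least 100 reads 18. The shares of all genes called in these fits are not given, so an excess of members cannot be read from them. The median level per kb of exon was 20.1 with library totals and 32.7 with the longest coding transcript. No call changed direction, but the log2 change of 6 members had another sign with all 6 libraries than without doxycycline replicate 3, and that of 12 had another sign with the GC correction; none of these was called without the correction. The causes were not tested.

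The deviations of same-numbered libraries from their group means correlated at 0.23, -0.17 and 0.024. These values cannot decide whether replicate numbers pair the samples, since the deviations within a group depend on each other and doxycycline replicate 3 stood apart. In a replicate block without doxycycline replicate 3, DMSO replicate 3 has no partner and does not inform the treatment effect. A replicate block without doxycycline replicate 3 gave 22 members higher (2074 higher and 2151 lower genes). With the GC correction as well it gave 10, with a median of 0.14, and the share of all genes is not given. With all 6 libraries the block gave 0. Without doxycycline replicate 2 as well, the adjusted p of the 17 members ran from 0.0645 (UTP4) to 0.450 (UBTF) (edgeR). Depth limits the footprint values, since 26 members had no footprint read.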
